A study of Caenorhabditis elegans with 4 samples.

Results

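JUN-1 peaks on the X chromosome of Caenorhabditis elegans were taken as all peaks that the deposited combined list places on X, which gave 571 of its 3467 peaks. The list comes from chromatin immunoprecipitation with sequencing (ChIP-seq), which reads the DNA fragments that an antibody against a crosslinked protein brings down. There were 2 ChIP samples and 2 inputs, which are chromatin before the antibody step, all from L3 larval hermaphrodites grown at 20 °C and fed Escherichia coli. Every sample was of strain OP234, an unc119(ed3) background with the insertion wgIs234, which holds the jun-1 gene (T24H10.7) with TY1, EGFP and FLAG tags and an unc119 copy. The inputs therefore carry the same transgene as the ChIP samples. It was introduced by bombardment and the strain was outcrossed 3 times. A goat antibody against full-length EGFP collected the chromatin, so the tagged copy of the protein was measured. The genotype lists no change at the endogenous jun-1 gene. The replicate 1 list held 189 X peaks and the replicate 2 list 575, and the input samples had no values here. The labels do not say whether the replicates came from separate cultures.

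JUN-1 belongs to the Jun family of basic leucine zipper transcription factors, which bind short DNA motifs as dimers, often with a Fos-type partner. The X chromosome of C. elegans is set apart from the autosomes in several known ways. In hermaphrodites a condensin-like dosage compensation complex binds both X chromosomes and lowers their transcription. It loads at a limited set of recruitment sites on X and spreads from there. X is also poor in genes active in the germline. Positions of recruitment sites and of genes in the build of the lists were not used here, so the regions below are named by position in WormBase WS180 alone and no sequence is shown.

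Each peak carries 1 value, the q-value of the PeakSeq peak caller. Strength is given here as −log10 q, so that a larger number means a smaller q-value. This is a measure of evidence and not of occupancy: it grows with read depth and with the width of the region over which reads are counted. Peaks of 50 or more are called very strong, those from 20 to 50 strong, those from 10 to 20 middle and those under 10 weak. These are round numbers and not natural breaks. The 23rd X peak stood at 53.0 and the 24th at 48.0, and the largest step between neighbouring ranks was at the top, from 234 to 165. Intervals are 95% intervals that cover counting error only. Neighbouring peaks are not independent and chromosomes are not replicates, so X was compared with the 5 autosomes by values and intervals and no p-value is given.

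By strength, the few strongest peaks set X apart from each autosome, and the bulk of X peaks did not. X held 23 very strong peaks, 4.03% of its 571 peaks (Wilson interval 2.70 to 5.97%), against 1.35% of the 2896 autosomal peaks and 1.79% of all peaks in the list. The difference was 2.68 percentage points (Newcombe interval 1.27 to 4.66). Single autosomes held from 6 very strong peaks on III and on IV to 11 on I. Per length, X carried 1.32 very strong peaks per Mb and the autosomes together 0.474. At 100 or more X held 12 peaks and all autosomes together 6, where 0.519% of all peaks in the list reached that value. The shares there were 2.10% on X and 0.207% on the autosomes, a difference of 1.89 points (0.97 to 3.43). In all 59 X peaks (10.3%) reached 20, beside 8.62% of the list, and the difference from the autosomes was 2.05 points (-0.43 to 4.97). Strong peaks made up 6.30% of X peaks and 6.94% of autosomal peaks (difference -0.64 points, interval -2.61 to 1.82). Middle peaks made up 18.6% on X and 18.1% on the autosomes, a difference of 0.50 points (-2.80 to 4.16). Weak peaks made up 71.1% on X and 73.7% on the autosomes, beside 73.2% of the whole list, a difference of -2.55 points (-6.71 to 1.37). The intervals of these last 4 differences include 0.

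The ranked values show where X leaves the autosomes. The peak of rank 10 had a strength of 114 on X and of 40.8 on II to 60.1 on I among the autosomes. At rank 20 the value was 60.2 on X and 27.4 to 32.7 on the autosomes. At rank 50 X had 23.2 and I had 22.7, with 15.9 to 21.0 on the other autosomes. At rank 100 X, with 14.0, lay inside the autosomal range of 10.8 to 15.7, and at rank 200, with 9.04, inside 6.65 to 9.88. The median X peak stood at 6.98 (interval 6.37 to 7.41), between the medians of 6.03 on V and 7.20 on I. The top of the X list therefore lay above every autosome down to rank 20, and the ranks from 100 on did not. The single strongest peak is no part of this contrast, since V had one of 227 beside the 234 on X. In replicate 1 X was also above every autosome at rank 10, with 53.9 on X and 13.0 on I to 17.5 on III, and at rank 20, with 25.4 on X and 9.24 on I to 12.6 on III. The order among the autosomes differed, since I was the highest of them at both ranks in the combined list and the lowest in replicate 1.

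**Figure D1:**
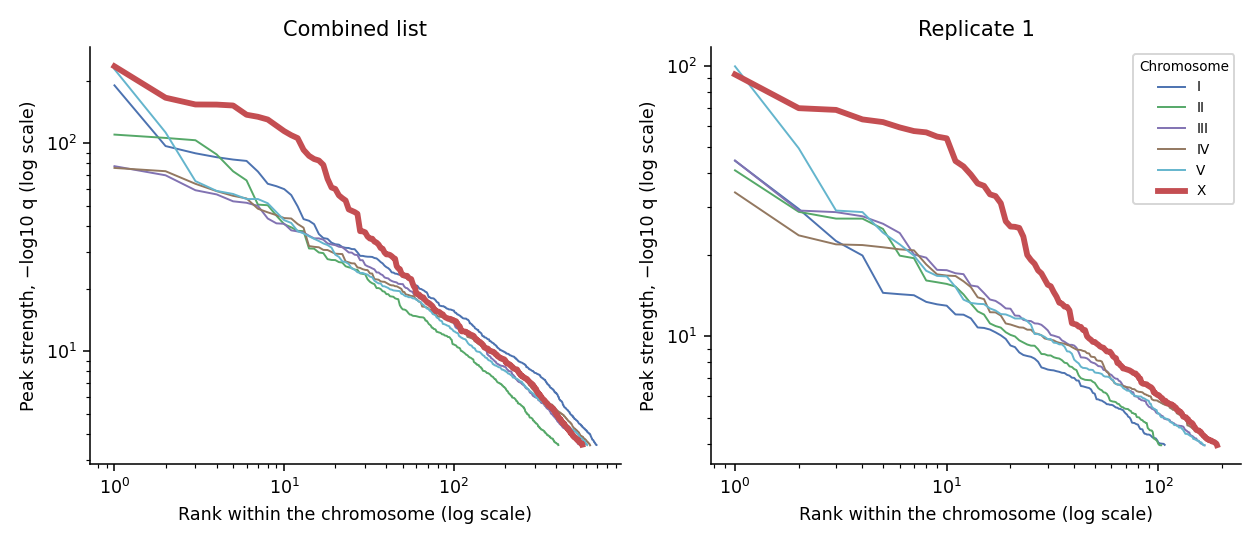
Peak strength (−log10 q, log axis) against rank within the chromosome (log axis) for each chromosome in the combined list (left) and in replicate 1 (right), 1 line per chromosome. In the combined list X, the thick red line, is at 114 at rank 10 where the autosomes are at 40.8 to 60.1, and it joins them by rank 100, where X is at 14.0.

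The 12 X peaks of 100 or more were also the 12 strongest X peaks of replicate 1, in another order. The strongest, at X from 16929326 to 16931948, had a strength of 234 in the combined list and 92.8 in replicate 1. The peak at X from 14525322 to 14526543 had 165 and 61.9. The peak at X from 4208370 to 4209738 had 153 and 68.7, and the one at X from 11093441 to 11094611 had 153 and 63.3. All 4 were the strongest on X in the combined list and lay within the first 5 ranks of X in replicate 1.

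The following 4 were also among the 10 X peaks that reached 50 in replicate 1. At X from 2996315 to 2997536 the values were 152 in the combined list and 59.2 in replicate 1. At X from 8035853 to 8036975 they were 137 and 56.7. At X from 1502870 to 1505191 they were 134 and 54.7. The peak at X from 6296080 to 6296992 combined a lower value, 130, with the second highest X value of replicate 1, 69.7. Its ratio of 1.86 between the lists was among the lowest of the very strong X peaks, which had a median ratio of 2.37.

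The last 4 of this group were 816 to 1051 bp wide. At X from 12362656 to 12363706 the strengths were 121 in the combined list and 53.9 in replicate 1. At X from 13700373 to 13701188 they were 114 and 57.4. At X from 16056022 to 16056886 they were 109 and 42.5, and at X from 9465363 to 9466316 they were 106 and 44.4. No autosomal replicate 1 peak other than one on V, at 99.5, reached 50, whereas 10 X peaks did, 5.29% of the 189 X peaks against 1.2% of all replicate 1 peaks. The replicate 1 values of the 12 ran from 42.5 to 92.8.

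The remaining 11 very strong X peaks had strengths from 53.0 to 92.9. In order of strength they began at 11790538 (92.9, and 39.6 in replicate 1), 11937040 (86.9 and 36.7), 1626716 (83.9 and 36.0), 1344600 (82.5 and 31.0) and 806350 (78.7 and 33.5). Below these came the peaks that began at 1389121 (67.4 and 25.4), 1453775 (61.2 and 33.0), 6252058 (60.2 and 9.53), 16681648 (56.1 and 25.4), 7181500 (54.4 and 23.4) and 5429171 (53.0 and 25.2). In 10 of these 11 regions replicate 1 had a single peak of 23.4 or more. The exception was the widest X peak of the combined list, 4007 bp from 6252058 to 6256064, which replicate 1 covered with 3 separate peaks whose strongest part stood at 9.53. With that exception, the very strong X peaks of the combined list were 22 of the 23 strongest X peaks in replicate 1.

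**Figure D2:**
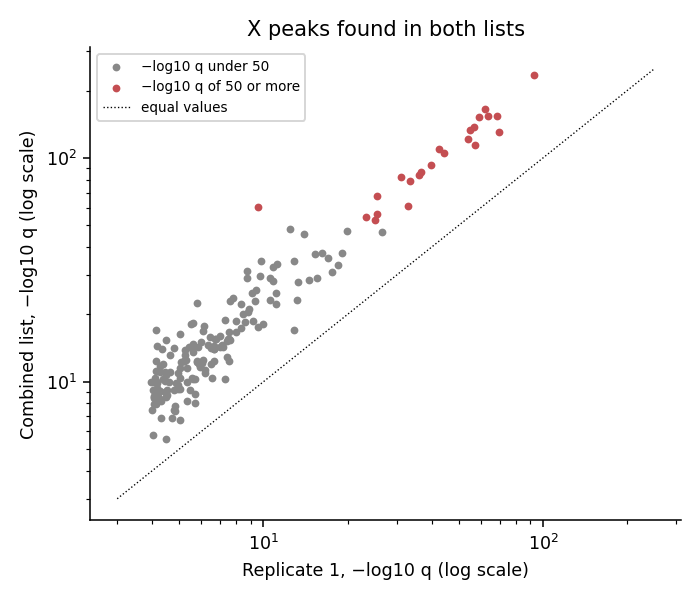
Strength in the combined list against strength in replicate 1 (both −log10 q, log axes) for the 183 X peaks with a replicate 1 peak, where the strongest replicate 1 peak stands for the region. The 23 very strong peaks (red) continue the band of the others, and the red point far to the left, at 9.53 in replicate 1, is the 4007 bp peak that replicate 1 splits into 3.

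The very strong X peaks differed in shape from the very strong autosomal ones. Their median width was 990 bp (interval 833 to 1222 bp), against 2798 bp (1789 to 3651 bp) for the 39 autosomal peaks of that strength. Of the 23 on X, 19 (82.6%) were under 1500 bp and 4 were 2000 bp or wider. Of the 39 on the autosomes, 11 (28.2%) were under 1500 bp and 25 were 2000 bp or wider. The difference in the share under 1500 bp was 54.4 percentage points (Newcombe interval 29.3 to 70.0), and 46.9 points (19.9 to 65.2) with chromosome I left out. Median widths of very strong peaks on single autosomes ran from 1386 bp on III, with 6 peaks, to 4229 bp on II, with 8. Divided by width, the very strong X peaks had a median strength of 106 per kb and the autosomal ones 26.1 per kb. Strength and width are linked through the number of reads in a region, so the 2 measures are not separate evidence.

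In replicate 1 alone, at a lower threshold, X peaks were narrower than the autosomal peaks as a whole, but not than those of each single autosome. At 20 or more, replicate 1 held 23 peaks on X, 12.2% of its X peaks, and 28 on the autosomes, 3.84% of theirs, where 5.56% of the whole list reached that value. Their median width was 858 bp on X and 1241 bp on the autosomes. Under 1500 bp were 20 of the 23 on X (87.0%) and 15 of the 28 on the autosomes (53.6%), a difference of 33.4 points (interval 7.90 to 53.1). On I, II and V, 1 of 3, 1 of 5 and 2 of 6 such peaks were under 1500 bp. On III it was 6 of 7, and on IV 5 of 7 with a median width of 423 bp, below that of X. Replicate 1 split 1 of the 23 very strong X regions into more than 1 peak and 12 of the 39 autosomal ones. At the 23 X regions the start differed between the lists by a median of 46 bp and the end by a median of 55 bp. In the combined list the 20 strongest X peaks held 31.5% of the summed −log10 q of the chromosome, against 15.6% on IV to 25.3% on II. In replicate 1 they held 44.5%, against 25.4% on IV to 41.0% on II. A fixed 20 peaks are a larger part of a shorter list, so these shares are not fully alike. Replicate 1 held 189 peaks on X and on IV, but 107 on I and 103 on II.

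**Figure D3:**
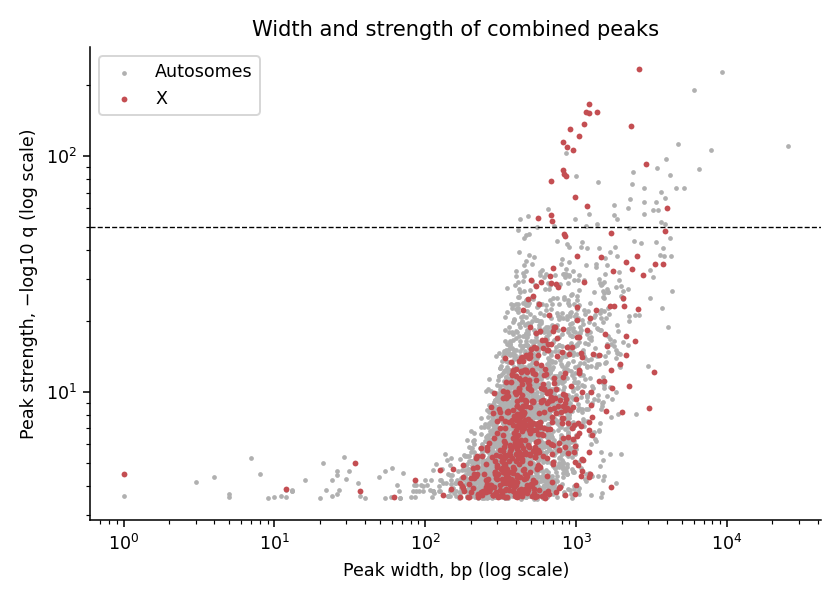
Strength (−log10 q, log axis) against width in bp (log axis) of the 3467 combined peaks, with X in red, the autosomes in grey and a dashed line at 50. Above the line most red points lie left of 1500 bp and most grey points right of it, with 19 of 23 X peaks and 11 of 39 autosomal peaks under 1500 bp.

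Over all strengths the X peaks were somewhat wider than those of each autosome. Their median width was 470 bp (interval 452 to 496 bp, quartiles 360 and 704 bp), and the autosomal medians ran from 388 bp on I to 432 bp on II. Peaks of 800 bp or more numbered 121 on X, 21.2%, against 15.3% on the autosomes and 16.2% of the list, a difference of 5.93 points (interval 2.50 to 9.69). In replicate 1 the X median was 556 bp (520 to 615 bp) and the autosomal medians ran from 430 to 476 bp. Among weak peaks the median was 420 bp on X (404 to 440 bp), against 366 bp (358 to 372 bp) on the autosomes. Middle peaks had a median of 590 bp on X and 550 bp on the autosomes, with overlapping intervals of 521 to 649 and 518 to 582 bp. Strong peaks had 1070 bp on X (740 to 1759 bp) and 839 bp on the autosomes (760 to 907 bp), so on X the strong peaks were about as wide as the very strong ones. The wider median of X was thus present among weak peaks, and it turned round among the very strong ones.

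The 36 strong X peaks came next, with combined strengths from 20.2 to 48.0 and replicate 1 values from 5.79 to 26.6 (median 11.0). Just under the threshold lay X from 6741001 to 6744880, with 48.0 in the combined list and 12.5 in replicate 1, and X from 6748921 to 6750630, with 47.3 and 20.0. The peak at X from 5840691 to 5841525 had 46.6 and the highest replicate 1 value of the class, 26.6, which is above that of 5 very strong X peaks. The peak at X from 2364473 to 2365316 had nearly the same combined value, 45.7, and 14.0 in replicate 1. Near the threshold the order of X peaks thus differed between the lists. Some strong peaks lay side by side, such as X from 15606693 to 15609041 (33.3 and 18.5) and X from 15610259 to 15610961 (33.6 and 11.2), whose midpoints were 2.74 kb apart. The wider of that pair was the stronger in replicate 1 and the narrower in the combined list, where the values differed by less than 1. These regions were picked after their values were seen.

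The widest X peaks were not the strongest. After the 4007 bp peak came X from 6741001 to 6744880 (3880 bp, strength 48.0), X from 6519334 to 6523112 (3779 bp, 34.7), X from 11603239 to 11606554 (3316 bp, 34.8) and X from 11471190 to 11474449 (3260 bp, 12.2). Replicate 1 covered each of the first 3 of these with 2 peaks, the strongest parts of which stood at 12.5, 9.82 and 12.9. At the last it had a single peak of 766 bp with a strength of 5.09. At the other end, 20 X peaks (3.50%, against 4.53% of the list) were under 200 bp, the narrowest of them 1 bp wide at 12198317. All 20 were weak and none had a replicate 1 peak. The autosomes had 137 peaks under 200 bp (4.73%), and replicate 1 held no peak that narrow on any chromosome. The lack of support is thus not shown to be particular to X.

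Replicate 1 supported 183 of the 571 X peaks by at least 1 bp, 32.0% (Wilson interval 28.4 to 36.0%), against 24.4% of the autosomal peaks and 25.7% of the list. The difference was 7.60 points (Newcombe interval 3.57 to 11.8), and 4.61 points (0.45 to 8.95) with chromosome I left out, on which few peaks had a replicate 1 partner. All 23 very strong and all 36 strong X peaks were supported. So were all 39 very strong autosomal peaks and 195 of the 201 strong ones (97.0%), so this support is not particular to X. Of the 106 middle X peaks 84 were supported (79.2%, interval 70.6 to 85.9%), and of the 406 weak ones 40 (9.85%, 7.32 to 13.1%). Middle peaks were supported in 66.7% of cases on the autosomes and in 79.0% on the autosomes without I, so that in this class X and the other 4 autosomes differed by 0.22 points (-9.23 to 8.12). Among peaks from 5 to 10 the share was 17.0% on X and 12.9% on the autosomes without I (difference 4.15 points, -0.71 to 9.85). Of the 171 X peaks under 5 none was supported, which allows a share of up to 2.20% (Wilson). Against all autosomes the difference was 3.99 points (1.24 to 7.40) for weak peaks, 6.85 points (2.20 to 12.4) for those from 5 to 10, 12.5 points (3.00 to 20.3) for middle and 2.99 points (-6.79 to 6.36) for strong ones. Against the autosomes without I, a comparison chosen after seeing the data, the interval for weak, middle and strong peaks included 0 each time.

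**Figure D4:**
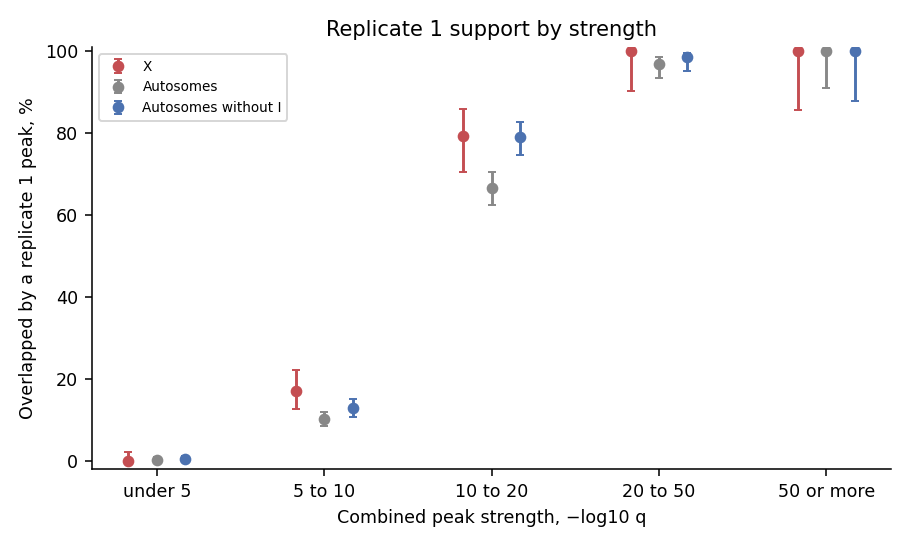
Share of combined peaks overlapped by a replicate 1 peak (%), by strength class (−log10 q), for X, all autosomes and the autosomes without I; bars are 95% Wilson intervals. X lies at 17.0% in the class from 5 to 10 and at 79.2% from 10 to 20, where the autosomes without I are at 79.0%. All X peaks of 20 or more are supported, as are all autosomal peaks of 50 or more and 97.0% of those from 20 to 50.

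Of the 189 replicate 1 X peaks, 175 (92.6%) lay wholly inside their combined peak, and each had a single combined partner. At the 183 supported X peaks the strongest replicate 1 peak had its midpoint a median of 23 bp from that of the combined peak (quartiles 10.5 and 54.8 bp). The ratio of combined to replicate 1 strength had a median of 2.23 (quartiles 1.97 and 2.52), and it was 2.37 for very strong, 2.46 for strong, 2.28 for supported middle and 1.93 for supported weak X peaks. No replicate 1 X peak was under 3.96, which caps the ratio of a weak peak, and the highest among them was 2.52. The lower ratio of weak peaks is therefore partly set by this limit. The 3 weakest replicate 1 X peaks still lay on combined peaks, at 15353597 to 15354416 (3.96, combined 9.97), 8477192 to 8477765 (4.004, combined 7.49) and 14134887 to 14135089 (4.02, combined 5.78). The strongest X peaks without a replicate 1 peak were all middle ones. They spanned X from 8210763 to 8211417 (15.1), 2809595 to 2810038 (13.6), 1395823 to 1396193 (13.3), 3534190 to 3534649 (12.4) and 16192481 to 16192910 (12.3). At depths that are unknown here, these are regions not detected in replicate 1 and not regions shown to lack binding.

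Along X the peaks were spread over the whole length from 324044 to 17480623. Divided into 3 equal parts of the span from base 1 to the last peak, X held 159 peaks in the first part (27.8%, interval 24.3 to 31.7%), 206 in the middle (36.1%, 32.2 to 40.1%) and 206 in the last. In replicate 1 the parts held 52, 71 and 66 peaks. The autosomes had 43.5% of their combined peaks in the middle part, from 37.5% on III to 47.5% on V, so the share on X was lower than on each of them, though III lay within the interval of X. In replicate 1 the middle part of X held 37.6% and that of IV 37.0%, so there X was not the lowest. Counts per full 1 Mb stretch of X ran from 18 to 53 with a median of 31. Their variance was 2.40 times their mean, against 2.19 times on III and 4.03 to 6.52 times on the other autosomes.

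The fullest stretch of X, from 6 to 7 Mb, held 53 combined and 16 replicate 1 peaks, the most in both lists, with 40.7 kb covered by combined peaks. It contained 3 of the 5 widest X peaks, namely those that began at 6252058, 6519334 and 6741001. It also held the very strong peak at 6296080, which was 913 bp wide. This last peak and the 4007 bp peak lay 42.5 kb apart, the closest pair of very strong X peaks, and stood at 142 and 15.0 in strength per kb, the highest and the lowest of the 23. The stretches from 8 to 9, 13 to 14 and 14 to 15 Mb followed with 42 peaks each. The emptiest full stretches were 0 to 1 Mb with 18 peaks, 2 to 3 Mb with 22, and 7 to 8 and 12 to 13 Mb with 25 each. The low count of the first stretch goes with its empty start: no combined X peak began before 324044 and no replicate 1 X peak before 409823. On the autosomes the first combined peak began between 3643 on I and 51133 on IV. In replicate 1 the autosomal starts ran from 3714 on I to 915257 on II, so the late start of X did not stand apart there.

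The longest stretch between X peaks of the combined list, 244 kb from 3290551 to 3534189, was shorter than this empty start. Replicate 2 had a peak within it, since its longest distance between neighbouring X midpoints was 211 kb. The next longest in the combined list were 210 kb from 1627549 to 1837772 and 175 kb from 13775821 to 13950565. The longest such stretch on an autosome ran from 201 kb on III to 587 kb on II. The typical distance between midpoints of neighbouring X peaks was 17.0 kb (median, interval 14.4 to 20.6 kb), with 9.28 kb on I, 12.5 kb on III, 13.5 kb on IV, 15.3 kb on V and 21.0 kb on II. Since spacing falls as peaks grow in number, the median was also divided by the mean distance of 30.1 kb. This gave 0.56 on X, close to 0.57 on II and above 0.43 to 0.50 on the other autosomes, where a lower ratio means peaks gathered more unevenly. Measured from edge to edge and not between midpoints, 102 of the X peaks (17.9%) had another within 1000 bp. The share was 18.0% on II, 18.1% on IV and 22.5 to 23.6% on I, III and V. In replicate 1 the median spacing on X was 57.4 kb and lay inside the autosomal range of 47.8 to 120 kb. X was thus not the extreme chromosome for median spacing in either list.

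**Figure D5:**
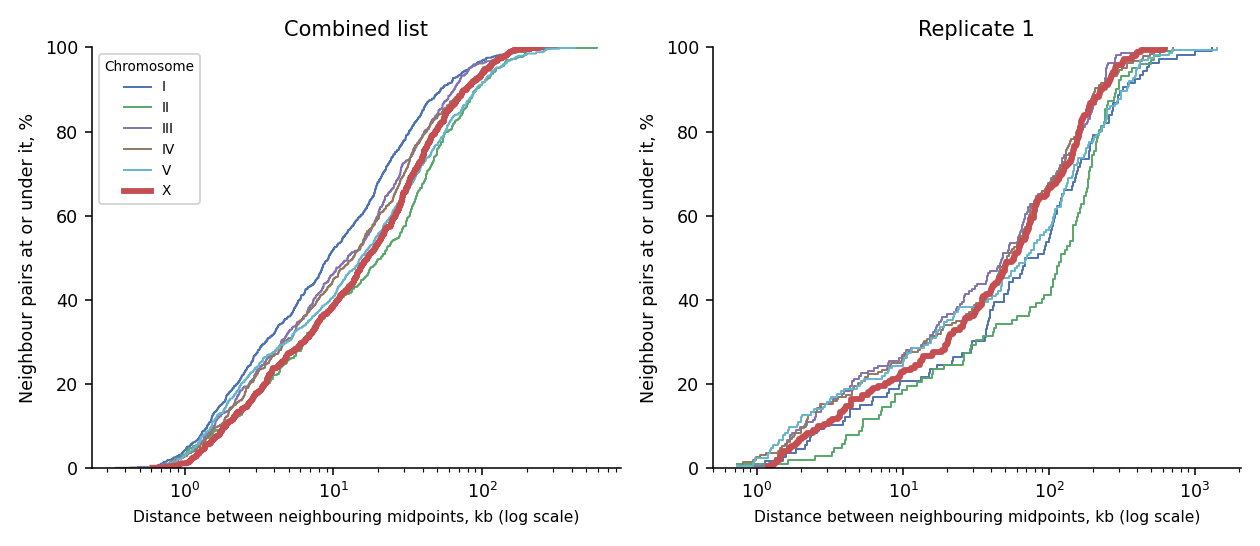
Cumulative share of neighbouring peak pairs (%) against the distance between their midpoints in kb (log axis), 1 line per chromosome, in the combined list (left) and in replicate 1 (right). The line of X, thick and red, lies between the others over most of its range, with medians of 17.0 kb in the combined list and 57.4 kb in replicate 1.

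The very strong X peaks were placed along the whole chromosome, with 9 in the first, 6 in the middle and 8 in the last of the 3 parts. Of the 18 stretches of 1 Mb, 14 held at least 1, and the longest distance between neighbouring ones, 1.63 Mb, ran from 9.47 to 11.1 Mb. Their median spacing was 761 kb. One group stood out, in a description made after the positions had been seen: 5 of the 23 (21.7%) lay within 283 kb from 1344600 to 1627548, which is 1.62% of the span. These were the peaks that began at 1344600, 1389121, 1453775, 1502870 and 1626716. The stretch held 15 combined peaks, 9 of them at 10 or more. It also held a strong peak from 1446533 to 1447203, with strengths of 31.1 and 17.5, which lay 7.50 kb from the nearest very strong one. The stretch was followed at once by the 210 kb without a peak named above. The nearest X neighbour of its last very strong peak lay before it, from 1541067 to 1541498. This distance of 85.8 kb was the farthest among the 23.

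The very strong X peaks had no more close neighbours than other X peaks did. Another X peak lay within 10 kb of 11 of the 23 very strong peaks (47.8%, Wilson interval 29.2 to 67.0%) and of 61.9% of the other 548 X peaks (57.7 to 65.8%). For the 36 strong peaks the share was 80.6% (65.0 to 90.2%), with a median distance to the nearest X peak of 3.30 kb, against 14.6 kb for the very strong ones. Within 50 kb the very strong peaks had a median of 4 other X peaks and the rest a median of 3. The strongest X peak, at 16929326, had its nearest neighbour 28.5 kb away, and the one at 14525322 had it 19.9 kb away. By contrast the peak at 11093441 had a neighbour at 1.52 kb and the one at 4208370 at 2.13 kb. Very strong X peaks were thus found both alone and beside others, and in the combined list the intervals for very strong and other X peaks overlapped. The direction depended on the threshold: of the 38 X peaks of 30 or more, 63.2% had a neighbour within 10 kb, against 61.2% of the rest. In replicate 1 a neighbour lay within 10 kb of 10% of the 20 strongest X peaks (Wilson interval 2.79 to 30.1%). It did so for 43.2% of the other 169, a share above that interval.

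The combined list on X was compared with replicate 2 last, because the lists are not independent. Start, end and q-value were those of a replicate 2 peak for 359 of the 571 X peaks. This was a lower share than in the whole list, where it held for 3090 of 3467 peaks (89.1%). The other 212 X peaks differed. They made up 212 of the 214 peaks in 6 stretches of 1 Mb, namely 3 to 4, 6 to 7, 9 to 10, 10 to 11, 13 to 14 and 15 to 16 Mb, and no peak of the other 12 stretches differed. Among the differing peaks 207 had a single replicate 2 partner, with starts and ends each a median of 4 bp apart and strengths a median of 0.12 apart. The largest shift was 1487 bp for a start and 7.46 for a strength. Another 4 combined X peaks overlapped no replicate 2 peak, and 9 of the 575 replicate 2 X peaks overlapped no combined peak. Of the 23 very strong X peaks 4 were among those that differed. The combined values given above are therefore close to replicate 2 values, and replicate 1 is the only other list to set against them. Whether the combined list also holds replicate 1 reads is not known, so replicate 1 may not be independent of it.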

How the data were processed

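ChIP-seq peak lists of 2 replicates and 1 combined list were used. Per the file headers and their source column, the authors called peaks with PeakSeq on WormBase WS180, and the deposited value per peak is a q-value, which the lists give at 2 places with equal values. Not given in the sources used here are the PeakSeq version, aligner, control, filters, read depth and way of combining. The q-values ended at 0.000112 in replicate 1 and at 0.000299 in the other lists, so the lists do not share a threshold. Groups came from sample titles; the description fields contradict them.

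Positions are 1-based. The midpoint stood for a peak, overlap meant at least 1 bp, and a chromosome ran from base 1 to its last peak end in any list. Neighbours within 1000 bp, merging and empty stretches were instead taken from edge to edge. Shares carry Wilson intervals, differences of shares Newcombe intervals, and medians order-statistic intervals, all at 95%. Overlap, spacing and the median interval were tested on simulated data. Merging was tested there only on peaks too far apart to be joined. Python 3.11.15, NumPy 2.4.6, pandas 2.3.3, SciPy 1.17.1, statsmodels 0.14.6 and matplotlib 3.10.9 were used.

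Regions named are the very strong X peaks, the 5 strongest X peaks without a replicate 1 peak, the 5 widest, the 3 longest empty stretches, the 3 fullest and 3 emptiest stretches of 1 Mb (more where counts tie) and the 3 weakest replicate 1 X peaks. The members, thresholds and rules were chosen with earlier results of these data known. Regions singled out beside these were chosen after their values were seen. Genes and sequences are not given, since the gene table at hand is of another assembly.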

Additional observations from a re-analysis of the deposited data

How the results depend on the processing

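Of 45 alternatives to 8 results, 26 stayed within the interval of the main value with X on the same side of the comparison. The cause of the other changes was not tested. This count is no measure of stability, because some settings could hardly move the X value. Leaving out chromosome I changes the autosomes only, and leaving out replicate 1 gives a list that nearly repeats the combined one. The comparison with the autosomes without chromosome I, and the threshold of 20 in replicate 1, were chosen after seeing the data. Without replicate 1 or replicate 2 in turn, the share of peaks on X ran from 16.6 to 20.6%, the share of X peaks at 50 or more from 4 to 5.29%, the median strength from 6.20 to 6.87, the median width from 467 to 556 bp, the median spacing from 16.7 to 57.4 kb and the middle part from 36.2 to 37.6%. In the combined list X held 16.5% of the peaks (interval 15.3 to 17.7%), and this interval includes its 17.5% share of the span. Without replicate 2, X turned to above that share and its spacing to shorter than on the autosomes. There the share of the 20 strongest replicate 1 X peaks with a neighbour within 10 kb was 10%, against 43.2% of the others. Values without replicate 1 nearly repeat the combined list, and support taken from replicate 2 in its place, 99.3%, is circular. In the stronger 50% of the list, X held 17.6% of peaks (interval 15.9 to 19.5%), which turned it to 0.09 points above its share of the span. There the median strength of X, 10.4 (9.88 to 11.5), turned to below that of the autosomes, with a difference of -0.07. Both turns were small beside these intervals. In that part of the list the width was 600 bp, the support 59.3% and the spacing 32.2 kb. The share of X peaks past the threshold was 6.65% at 30, 2.10% at 100 and 12.2% at 20 in replicate 1, each above the autosomes. Support was 26.8% with midpoints within 100 bp, and the spacing was 21.4 kb with neighbours merged. Neighbours of very strong X peaks depended on the setting: the share was 95.7% within 50 kb, and it turned to above that of the other X peaks at a threshold of 30 (63.2%) and within 100 kb (100%). X had 33.3 peaks per Mb from its first to its last peak, against 35.2 on the autosomes. From base 1 it had 32.7, against 35.2 on the autosomes and 32.7 on the autosomes without chromosome I. No paired analysis was possible because neither input sample came with values to pair with its ChIP sample.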
